A study of Mus musculus with 12 samples.

Results

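MC903 on ear skin of specific-pathogen-free (SPF) mice was compared with its vehicle, ethanol. The comparison holds 6 of the 12 libraries of the series, 3 per treatment, which were chosen by the labelled housing and treatment alone, and it covers every gene of the table. All 6 libraries are of ear skin from mice labelled C57BL/6, given either ethanol or MC903, with 5 applications whose frequency the wording does not settle. Age, sex and the day and hour of sampling were not among the details in the labels. The other 6 libraries hold the same treatments in germ-free (GF) mice. They shared the model fit and enter the text only where the GF response is named. Nothing in the labels ties a library to 1 mouse, so the p-values measure the spread between libraries, which may be technical.

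MC903, also called calcipotriol, is an analogue of active vitamin D with little effect on blood calcium. It binds the vitamin D receptor, a nuclear receptor that pairs with retinoid X receptors on DNA. In mouse keratinocytes these ligands are known to switch on the cytokine thymic stromal lymphopoietin, which recruits type 2 immune cells, and repeated application gives a dermatitis used as a model of atopic dermatitis. Healthy epidermis is built from a basal layer marked by keratins 5 and 14, suprabasal layers marked by keratins 1 and 10, and a granular layer that makes the cornified envelope, while wounded or inflamed epidermis adds keratins 6, 16 and 17 and small proline-rich proteins.

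Totals lay between 40196604 and 43952521 estimated counts with ethanol and between 36358294 and 48225425 with MC903. Expression is given as CPM, counts scaled to a common depth on TMM library sizes from edgeR, which line up the bulk of the genes. Levels of different genes are compared only as the deposited FPKM, which divides by gene length. The scaling matters here, since mean TMM factors were 1.23 with ethanol and 0.825 with MC903. On library totals the median log2 change of all genes moved by -0.58, so that a list with a median between 0 and 0.58 turns negative. A sum of CPM that rises by less than 0.58 on the log2 scale likewise becomes a fall. The tissue label fitted its markers: 17 tested epidermal keratins summed to 33900 to 38200 CPM with ethanol and 51000 to 64000 CPM with MC903, and 28 collagen and fibroblast genes to 17100 to 18800 CPM with ethanol and 9740 to 11500 CPM with MC903. Muscle (2830 to 3330 CPM with ethanol and 1770 to 1840 CPM with MC903) and cartilage genes (1150 to 1260 CPM with ethanol and 797 to 824 CPM with MC903) were also present, as an ear holds both tissues. In bulk skin, fewer cells of a type and less RNA per cell cannot be told apart.

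Most genes differed between MC903 and ethanol. Of 16466 genes tested with edgeR's quasi-likelihood test, 5755 (35%) were higher and 6395 (38.8%) lower at an adjusted p of at most 0.05, together 73.8%, and 2568 (15.6%) rose and 3112 (18.9%) fell by at least 2-fold. Scaled to library totals, 3127 were higher and 10105 lower, 23.6% rises among the calls against 47.4%. The median log2 change of all genes was -0.10, and each list below is read against these shares. Counted on library totals, the 363 genes that rose at least 8-fold went from 0.542% of all counts to 10.4%, and the 157 that rose at least 32-fold went from 0.0422% to 6.21%. The 230 genes that fell at least 8-fold went from 0.438% to 0.0234%. All genes called higher went from 46.3% to 74.9%, and all called lower from 37.4% to 13.9%.

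**Figure D1:**
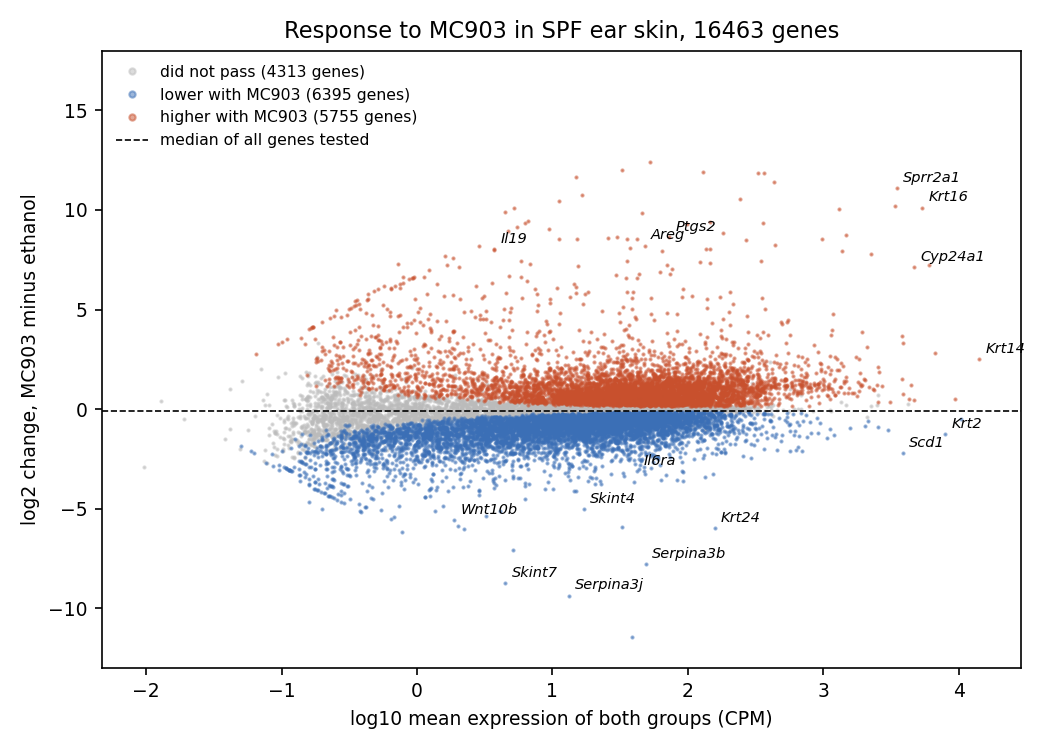
Log2 change of each gene (MC903 minus ethanol, vertical) against its mean expression in both groups (log10 CPM, horizontal), for the 16463 tested genes with a count in any SPF library; colours mark the test at an adjusted p of 0.05 and genes at 0 in 1 group are drawn at the bound that a floor of 3 counts allows. Rises reach further from the median line than falls, and Krt16, Sprr2a1 and Cyp24a1 combine a large rise with high expression.

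The largest gains in expression went to keratins and the vitamin D enzyme Cyp24a1, and the largest losses to the keratins of mature epidermis, Scd1 and collagens. The 10 genes that gained most CPM were Krt14, Krt6a, Krt16, Krt1, Cyp24a1, Sprr2a1, Krt6b, Fabp5, Cdsn and Rptn. The 10 that lost most were Krt2, Scd1, Krt10, Gsn, Col1a2, Col3a1, Dcn, Apoe, Col17a1 and Col1a1. Scd1, a desaturase abundant in sebaceous glands, had 6350, 6450 and 6380 CPM with ethanol and 1250, 1330 and 1560 CPM with MC903 (log2 change -2.21, SE 0.11, adjusted p = 2.8e-09). Gsn, which severs actin filaments, had 4010, 4390 and 3900 CPM with ethanol and 1650, 2090 and 2150 CPM with MC903 (log2 change -1.06, SE 0.10, adjusted p = 1.2e-06). In both genes every MC903 library lay below every ethanol library. The fall of Col1a1 (-0.62, adjusted p = 0.0013) was -0.14 (adjusted p = 0.37) with the trend of the changes with gene length removed.

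The vitamin D pathway held rises and falls. Cyp24a1 (gene ID 13081, GRCm38 chromosome 2, 170482957 to 170497145), which inactivates the hormone, had 29.6, 73.8 and 93.6 CPM with ethanol and 7780, 9570 and 10500 CPM with MC903 (log2 change 7.14, SE 0.41, adjusted p = 1.1e-08). S100g, a calcium-binding protein induced by vitamin D in gut, had 0.019, 0 and 0 CPM with ethanol and 9.76, 13.2 and 8.29 CPM with MC903, 1 count against 1155 counts in the summed libraries (1640-fold, 95% counting interval 294 to 64800). Atp2b1, a pump that exports calcium, rose from 83.6, 82.3 and 80.4 CPM to 218, 280 and 311 CPM (log2 change 1.72, SE 0.12, adjusted p = 8.4e-08). The receptor gene Vdr stayed near its control level, at 70, 73.6 and 72.2 CPM with ethanol and 69.5, 63.3 and 69.2 CPM with MC903 (log2 change -0.10, SE 0.06, adjusted p = 0.14). The MC903 values of Vdr lay below the ethanol values but close to them, and the call depended on the scaling. Scaled to library totals the change was -0.67 (adjusted p = 5.1e-07), and once the trend in gene length was taken out it was 0.21 (adjusted p = 0.0019). The activating enzyme Cyp27b1 had 0.323, 0.783 and 0.627 CPM with ethanol and 0.574, 0.591 and 0.164 CPM with MC903, with overlapping groups (log2 change -0.34, SE 0.49, adjusted p = 0.54). Its vitamin D 25-hydroxylating relative Cyp27a1 fell from 15.7, 15.5 and 14.1 CPM to 3.49, 3.39 and 2.14 CPM (log2 change -2.31, SE 0.18, adjusted p = 1.3e-07), and Rxra, the partner receptor, from 326, 412 and 382 CPM to 198, 182 and 186 CPM (log2 change -0.98, SE 0.08, adjusted p = 1.4e-07). Of 21 tested (of 25 listed) pathway genes, 6 rose and 7 fell, the median log2 change was -0.24, and 9 rose and 6 fell with the length trend removed. The balance was 6 rises and 13 falls on library totals (median -0.81).

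**Figure D2:**
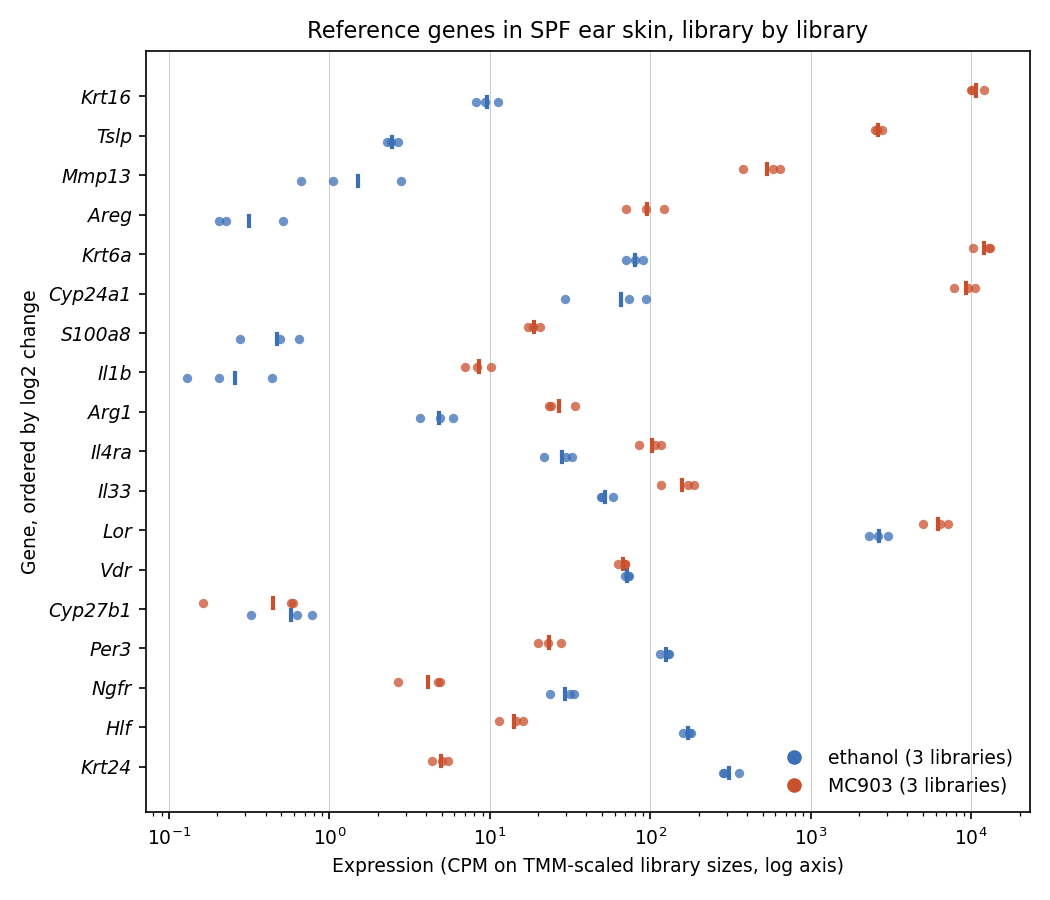
Expression in each SPF library (CPM, log axis) of 18 reference genes of the lists, ethanol in blue and MC903 in red, with the group mean as a bar; S100g is left out because it was at 0 in 2 ethanol libraries. The groups are apart in every gene except Cyp27b1, where they overlap, and Vdr, where they lie side by side.

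Tslp and Il33 rose, while the receptor genes held 1 rise and 4 falls. Tslp had 2.68, 2.29 and 2.42 CPM with ethanol and 2500, 2780 and 2600 CPM with MC903 (log2 change 10.06, SE 0.26, adjusted p = 5.1e-11), so that its deposited level reached 1872 ± 68.9 FPKM (SD, n = 3) from 2.59 ± 0.254. Il33, a nuclear alarmin, had 49.1, 50.2 and 58.2 CPM with ethanol and 186, 117 and 171 CPM with MC903 (log2 change 1.59, SE 0.15, adjusted p = 1.1e-06). Every MC903 value of both genes was above every ethanol value. Among the receptors, Crlf2, which binds thymic stromal lymphopoietin, rose from 19.7, 19.4 and 16.4 CPM to 36.4, 38.3 and 34.2 CPM (log2 change 0.97). Il17rb, part of the IL-25 receptor, fell from 9.7, 11.3 and 11.6 CPM to 3.99, 3.7 and 2.99 CPM (log2 change -1.6), and the IL-33 receptor Il1rl1 from 6.78, 6.49 and 6.27 CPM to 3, 2.8 and 5.53 CPM (log2 change -0.80, adjusted p = 0.0039, and -0.40 with the length trend removed). Of 8 listed genes 7 were tested, and 3 rose and 4 fell. The other falls were Il1rap (-1.03), the shared chain of IL-1 family receptors, and Il7r (-0.53, adjusted p = 0.026), which pairs with Crlf2. The call of Il7r was lost without the first ethanol (adjusted p = 0.065), the third ethanol (0.067) or the second MC903 library (0.1). With the length trend removed neither Il1rl1 nor Il7r passed (adjusted p = 0.084 and 0.055), which left 3 rises and 2 falls.

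Among the IL-4, IL-6 and IL-31 family genes, Il4ra, Il6 and Osm rose, and the receptors of IL-6, LIF and IL-31 fell. Il4ra, the receptor chain for IL-4 and IL-13, had 32.4, 29.8 and 21.9 CPM with ethanol and 117, 84.7 and 107 CPM with MC903 (log2 change 1.88, SE 0.14, adjusted p = 1.2e-07). The cytokine Osm rose from 0.285, 0.247 and 0.111 CPM to 1.82, 2.85 and 3.65 CPM (log2 change 3.68, SE 0.40, adjusted p = 3.1e-06). Il6 held 3 counts with ethanol and 77 with MC903, 36.4-fold more (95% counting interval 12 to 181). Il6ra, the IL-6 receptor, fell from 65.7, 88.8 and 72.2 CPM to 10, 6.84 and 9.41 CPM (log2 change -3.11, SE 0.16, adjusted p = 4.1e-09), as did Lifr (-2.01) and Il31ra (-2.32), the receptors of LIF and of the itch cytokine IL-31. Among the 14 genes of that list 6 were higher and 4 lower. The median was 0.46, and -0.11 with 4 rises and 6 falls on library totals. Downstream, the feedback inhibitor Socs3 rose from 22.6, 17.7 and 18.7 CPM to 44.4, 31.4 and 41.7 CPM (log2 change 1.0). Stat2, which carries interferon signals, fell from 27.4, 23 and 24.5 CPM to 12.8, 11 and 7.76 CPM (-1.24).

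In the EGF family several ligand genes rose, and Erbb3 and the inhibitor Lrig1 fell. Areg (gene ID 11839, GRCm38 chromosome 5, 91139599 to 91148432), which encodes amphiregulin, had 0.228, 0.206 and 0.516 CPM with ethanol and 71, 122 and 93.9 CPM with MC903 (log2 change 8.21, SE 0.39, adjusted p = 2.5e-09). Epgn, which encodes epigen, rose from 1.08, 1.03 and 1.83 CPM to 113, 144 and 183 CPM (log2 change 6.79, SE 0.24, adjusted p = 2.9e-10), and the neuregulin gene Nrg1 from 0.076, 0.268 and 0.0369 CPM to 4.44, 6.74 and 6.68 CPM (log2 change 5.56, SE 0.44, adjusted p = 1.9e-07, and 6.65 without the second ethanol library). All 3 ligand genes were below 2 CPM in every control library and above 4 CPM in every treated one. Hbegf rose by 1.72 on the log2 scale, and Egf itself fell by 1.3. Erbb3, a receptor for neuregulins, fell from 75.4, 97.9 and 88.5 CPM to 45.3, 30.7 and 51.5 CPM (log2 change -1.04, SE 0.17, adjusted p = 0.0001), and Lrig1, which limits EGF receptor signalling, from 88.1, 96.8 and 85.9 CPM to 31.2, 26.7 and 32.9 CPM (log2 change -1.58, SE 0.08, adjusted p = 4.4e-09). Over all 15 members 6 rose and 6 fell. The median was 0.12, and -0.46 with 4 rises and 7 falls on library totals. Per length, Areg reached 63.5 ± 15.9 FPKM (SD, n = 3) with MC903, from 0.305 ± 0.166 FPKM with ethanol.

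The IL-20 and IL-1 families each held rises and falls. Il24 was at 0 with ethanol and at 12.1, 7.97 and 8.13 CPM with MC903, at least 487-fold higher if the 3 ethanol libraries are granted 3 counts between them, the floor used for every such bound. Il19 rose from 0.038, 0.0412 and 0 CPM to 11.3, 6.04 and 4.87 CPM (log2 change 8.02, SE 0.64, adjusted p = 1.8e-07), and the related cytokine Il10 from 0.076, 0 and 0.0369 CPM to 0.974, 2.39 and 2.37 CPM (log2 change 5.52, SE 0.63, adjusted p = 5e-06, and 6.41 without the first ethanol library). Il20 went the opposite way, from 0.475, 0.33 and 0.498 CPM to 0 in every MC903 library, at least 15.8-fold lower. Of the 6 receptor genes in the list 5 fell. Il20rb, shared by IL-19, IL-20 and IL-24, had 194, 240 and 229 CPM with ethanol and 47.7, 33.6 and 37.6 CPM with MC903 (log2 change -2.48, SE 0.14, adjusted p = 7.6e-09), and the IL-22 decoy receptor Il22ra2 had 13, 24 and 12.6 CPM with ethanol and 0.724, 1.31 and 0.987 CPM with MC903 (log2 change -4.03, SE 0.32, adjusted p = 1.7e-07). Of 10 tested (of 11 listed) genes 3 rose and 6 fell. Among 18 IL-1 and IL-36 genes 6 rose and 6 fell, against 4 rises and 10 falls on library totals. The cytokine Il1b rose from 0.437, 0.206 and 0.129 CPM to 10.2, 6.99 and 8.36 CPM (log2 change 5.03, SE 0.40, adjusted p = 1.7e-07, and 5.66 without the first ethanol library) and Il1a by 1.55, whereas the IL-38 gene Il1f10 fell from 12.5, 11.4 and 10.8 CPM to 0.699, 1.13 and 0.822 CPM (log2 change -3.7, SE 0.19, adjusted p = 4.6e-09) and the decoy receptor Il1r2 by 1.64.

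**Figure D3:**
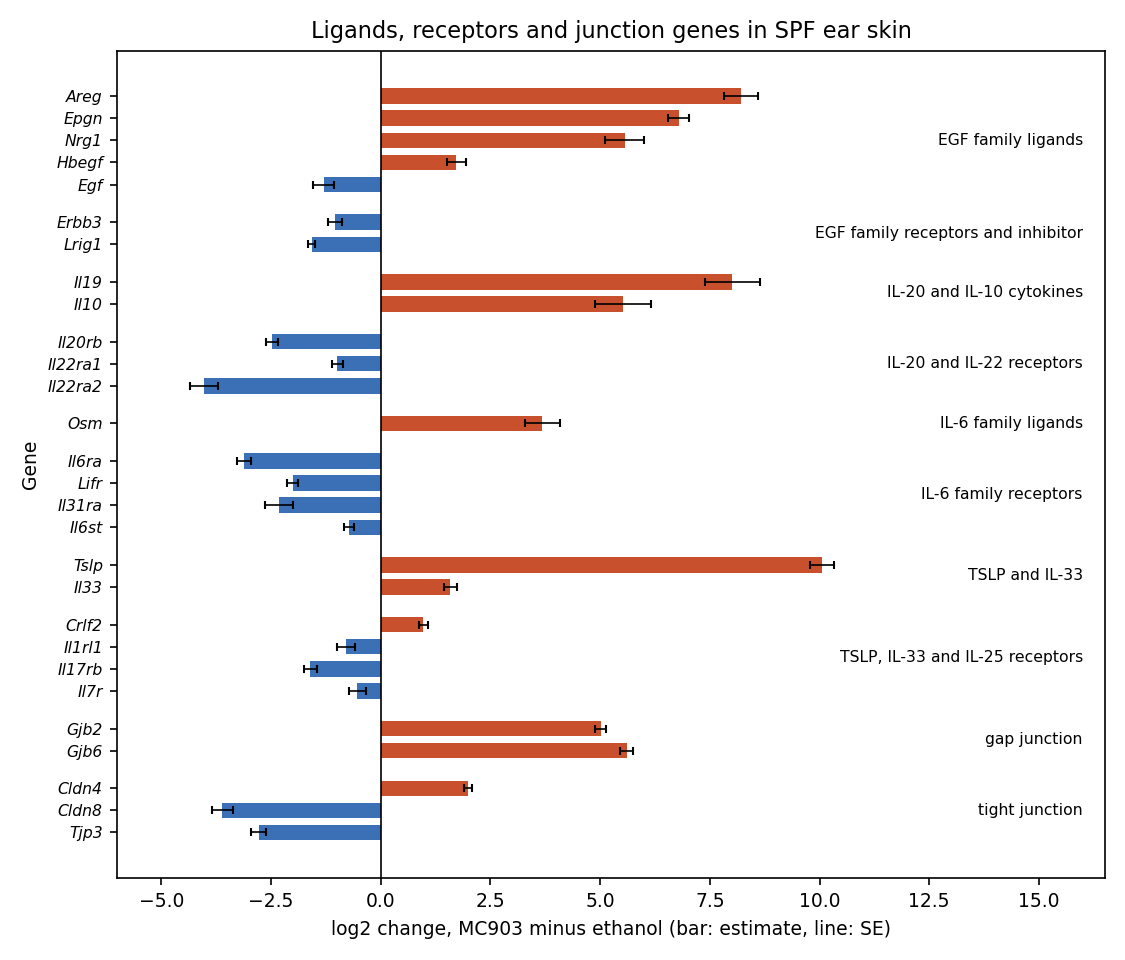
Log2 change (bar) and its SE (line) of selected cytokine ligands, their receptors and junction genes, MC903 minus ethanol in 3 against 3 SPF libraries, with red for higher and blue for lower. Of the ligand genes drawn, those other than Egf extend to the right, up to 10.06 for Tslp, while most receptor genes extend to the left, down to -4.03 for the decoy receptor Il22ra2. The ligand genes Il20, Il1f10 and Edn1, which fell, are not drawn.

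Genes tied to itch and to nuclear factor kappa B were also divided. Ptgs2, the inducible cyclooxygenase, had 0.437, 0.33 and 0.332 CPM with ethanol and 112, 133 and 193 CPM with MC903 (log2 change 8.62, SE 0.27, adjusted p = 1.2e-10), with every MC903 library above every ethanol library. The neurotrophic gene Artn rose from 0.266, 0.0412 and 0.424 CPM to 6.52, 5.17 and 5.92 CPM (4.55, and 5.2 without the third ethanol library). F2rl1, the protease receptor PAR2, fell from 34.7, 33.8 and 34.3 CPM to 8.54, 5.66 and 6.18 CPM (log2 change -2.33, SE 0.14, adjusted p = 1.3e-08), and Edn1, which encodes endothelin-1, by 1.7. Of 15 tested (of 17 listed) itch genes 6 rose and 4 fell. The median was 0.49, and -0.08 with 4 rises and 6 falls on library totals. Bcl3, a nuclear partner of NF-kB, rose from 5.36, 3.73 and 3.02 CPM to 70.8, 63.1 and 57.9 CPM (log2 change 3.98, SE 0.18, adjusted p = 1.6e-09) among 10 rises and 3 falls in 20 genes (median 0.59, and 0.01 with 5 rises and 8 falls on library totals).

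Keratin expression was reordered. All 4 wound keratins rose: Krt6a (gene ID 16687, GRCm38 chromosome 15, 101689928 to 101694305) had 80.5, 89.6 and 70.9 CPM with ethanol and 13000, 10300 and 12900 CPM with MC903 (log2 change 7.23, SE 0.21, adjusted p = 7.6e-11). Krt6b had 5.62, 6.29 and 5.59 CPM with ethanol and 7720, 5140 and 7590 CPM with MC903, and Krt16 had 9.38, 11.3 and 8.15 CPM with ethanol and 12000, 10100 and 9920 CPM with MC903 (log2 change 10.12, SE 0.55, adjusted p = 7.2e-09). The split between Krt6a and Krt6b is uncertain, since the copies are nearly identical. Krt17 rose from 290, 240 and 221 CPM to 3700, 3650 and 3550 CPM (log2 change 3.86, SE 0.12, adjusted p = 9.5e-11). Among 17 epidermal keratins 6 rose and 7 fell. The median was 0.11, and -0.47 with 5 rises and 9 falls on library totals. Krt14 rose from 4530, 3840 and 4290 CPM to 25000, 24000 and 23100 CPM (log2 change 2.51, SE 0.12, adjusted p = 1.8e-09), and Krt1 from 1460, 1730 and 1740 CPM to 13000, 12100 and 9840 CPM (log2 change 2.82, SE 0.14, adjusted p = 3.5e-09). Their usual partners did not follow. Krt10, the partner of Krt1, had 12000, 11200 and 13500 CPM with ethanol and 10700, 7530 and 7850 CPM with MC903 (log2 change -0.49, SE 0.14, adjusted p = 0.0077), with no overlap between groups. Krt5, the partner of Krt14 and looked up after its values were seen, had 4090, 3630 and 3780 CPM with ethanol and 5670, 4400 and 3830 CPM with MC903 (log2 change 0.27, adjusted p = 0.075). That value was -0.30 (adjusted p = 0.037) on library totals, 0.32 (0.012) in DESeq2 and 0.39 (0.012) without the third MC903 library.

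Krt24, Krt77 and Krt2, keratins of differentiated epidermis, fell. Krt24 had 359, 288 and 283 CPM with ethanol and 5.49, 4.34 and 5.03 CPM with MC903 (log2 change -5.97, SE 0.16, adjusted p = 5.1e-11). Krt77 had 24.9, 32.8 and 16.4 CPM with ethanol and 0.549, 1.88 and 3.95 CPM with MC903 (log2 change -3.58, SE 0.46, adjusted p = 1.5e-05, and -4.35 without the third MC903 library). Krt2, a keratin of the granular layer, had 11400, 10100 and 12100 CPM with ethanol and 7250, 2920 and 3970 CPM with MC903 (log2 change -1.25, SE 0.26, adjusted p = 0.00092), with the first MC903 library well above the other two. Per length, the order with ethanol was Krt10 at 7040 ± 751 FPKM (SD, n = 3), Krt2 at 5152 ± 540, Krt14 at 3066 ± 307, Krt5 at 2107 ± 162, Krt1 at 807 ± 68.5 and Krt17 at 194 ± 29.7. With MC903 the order was Krt14 at 11703 ± 508, Krt16 at 5513 ± 641, Krt6a at 4322 ± 612, Krt1 at 3842 ± 517, Krt10 at 3368 ± 714, Krt6b at 2470 ± 569, Krt17 at 1890 ± 45.5, Krt5 at 1709 ± 355 and Krt2 at 1464 ± 715. Within the MC903 order, the ranges of Krt6a, Krt1 and Krt10 overlapped, as did those of Krt6b, Krt17, Krt5 and Krt2. Hair keratins were at low level in controls, and 19 tested (of 24 listed) gave 8 rises and 1 fall. Krt84, a nail and tongue keratin, had 0.722, 0.557 and 1.49 CPM with ethanol and 348, 35.8 and 34.7 CPM with MC903, and Krt36 went from 0 to 242, 36.1 and 37.5 CPM, at least 5440-fold higher, with an adjusted p of 1.1e-05 that was 0.062 in limma voom. In both genes the first MC903 library was several times the others, and without it the log2 change of Krt84 was 5.24 in place of 7.22 and the bound of Krt36 was 1900-fold.

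Genes of the cornified envelope rose most strongly in the families of inflamed skin. Of 15 tested (of 16 listed) small proline-rich genes 14 rose and 1 fell. The median was 8.62, or 8.52 with genes at 0 in controls set at their bounds. Sprr2b (gene ID 20756, GRCm38 chromosome 3, 92316705 to 92318085) had 0.057, 0.165 and 0.295 CPM with ethanol and 609, 716 and 645 CPM with MC903 (log2 change 11.86, SE 0.48, adjusted p = 7.1e-10). Sprr2a1 had 1.84, 3.57 and 4.13 CPM with ethanol and 7500, 7080 and 6380 CPM with MC903 (log2 change 11.1, SE 0.35, adjusted p = 1.2e-10). Without the third ethanol library the change of Sprr2b was 12.52. The 12 Sprr2 genes rose by 5.88 to 11.86 on the log2 scale, but copies in this cluster are nearly identical and the split between them is uncertain. Sprr4 stood apart, at 3.89, 1.77 and 1.49 CPM with ethanol and 0.474, 0.668 and 0.724 CPM with MC903 (log2 change -1.94, SE 0.42, adjusted p = 0.0011). The late cornified envelope family divided by subgroup: all 6 Lce3 genes, which are known from wounded and psoriatic skin, rose by 5.86 to 8.52, while 13 of 14 Lce1 genes, the set of normal granular layer, rose with a median of 2.24 and Lce1m fell by 0.46 (adjusted p = 0.022). The call of Lce1m was lost without the second ethanol (adjusted p = 0.11), the second MC903 or the third MC903 library (0.068 each). Lce3d had 0.855, 1.15 and 1.31 CPM with ethanol and 244, 294 and 327 CPM with MC903 and Lce3b 0, 0.144 and 0.0369 CPM with ethanol and 15.6, 23.4 and 28.3 CPM with MC903. The log2 change of Lce3b was 8.52, and 10.01 without the second ethanol library. Lce3d and Lce3b were thus at a low level in control skin, and the ranges of change of the Lce3 and Lce1 subgroups did not overlap.

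Scaffold genes of the envelope followed in 19 of 22 tested (of 24 listed) cases, with 2 falls. The median was 1.59. Rptn, which encodes repetin, had 19.7, 19.6 and 22.6 CPM with ethanol and 4060, 3790 and 5630 CPM with MC903 (log2 change 7.77, SE 0.25, adjusted p = 1.7e-10). Tchhl1, of the same fused S100 gene family, rose by 8.54. Lor, the main protein of the normal envelope, had 2640, 3010 and 2290 CPM with ethanol and 6410, 7130 and 5030 CPM with MC903 (log2 change 1.23, SE 0.16, adjusted p = 1.9e-05). Flg2, a filaggrin relative, fell from 448, 507 and 473 CPM to 179, 108 and 129 CPM (log2 change -1.78, SE 0.17, adjusted p = 7.7e-07), and periplakin (Ppl) from 574, 667 and 679 CPM to 292, 204 and 235 CPM (-1.4). Stefins, inhibitors of cysteine proteases, rose in 11 of 12 cases: BC100530 had 0.171, 0.144 and 0.258 CPM with ethanol and 680, 734 and 770 CPM with MC903, and Gm5483 went from 0 to 7.36, 17.3 and 13.2 CPM, at least 652-fold higher. With the 3 stefins at 0 in controls set at their bounds, the median of that list was 8.59. Stefin genes are near-identical copies, so the split is uncertain.

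The promoters of Sprr2b, Sprr1b and Mmp13, picked from many strongly raised genes, are shown as examples. Their mean CPM was 3810-, 422- and 357-fold higher with MC903. Sprr1b, at 10.4, 6.08 and 4.28 CPM with ethanol and 2880, 3080 and 2790 CPM with MC903, was added after its values were seen. Sequences are those of RefSeq (GRCm38.p6), from 250 bases before to 50 bases after the transcript start, read 5′ to 3′ on the gene's strand. Capitals mark the AP-1 motif TGANTCA, searched on both strands; it reads the same on either strand apart from its middle base. Sprr2b lies on the plus strand (chr3:92316455-92316754), Sprr1b on the minus strand (chr3:92438730-92439029) and Mmp13 on the plus strand (chr9:7272264-7272563).
Sprr2b: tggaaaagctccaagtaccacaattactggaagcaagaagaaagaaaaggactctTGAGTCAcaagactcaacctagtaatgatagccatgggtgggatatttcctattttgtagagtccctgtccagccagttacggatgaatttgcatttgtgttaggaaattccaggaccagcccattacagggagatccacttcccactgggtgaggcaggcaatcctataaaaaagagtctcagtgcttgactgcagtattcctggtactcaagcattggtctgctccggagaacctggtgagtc
Sprr1b: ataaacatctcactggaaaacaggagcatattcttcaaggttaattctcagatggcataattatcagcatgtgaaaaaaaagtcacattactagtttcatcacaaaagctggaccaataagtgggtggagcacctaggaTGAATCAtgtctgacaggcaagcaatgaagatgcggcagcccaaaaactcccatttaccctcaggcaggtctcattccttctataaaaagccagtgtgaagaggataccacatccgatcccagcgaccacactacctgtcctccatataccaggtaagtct
Mmp13: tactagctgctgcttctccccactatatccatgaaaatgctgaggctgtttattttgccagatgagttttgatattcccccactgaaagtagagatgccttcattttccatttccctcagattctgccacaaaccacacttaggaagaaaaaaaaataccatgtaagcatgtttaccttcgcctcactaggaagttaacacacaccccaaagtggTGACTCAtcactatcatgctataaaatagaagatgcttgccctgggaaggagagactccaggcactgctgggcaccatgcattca
The motif starts 195 bases before the start site in Sprr2b, 111 bases in Sprr1b and 35 bases in Mmp13, once in each window. Each window also holds TATAAA, 29, 30 and 16 bases before the start. Of 12897 tested genes with a promoter in the table, 7.1% held TGANTCA, against 15.1% of 284 genes that rose at least 8-fold and 6.55% of 168 that fell at least 8-fold. TATAAA was in 10.3% of all, 27.8% of the raised and 18.5% of the lowered promoters. The E-box CACGTG, in 10.8% of all promoters, was in 8.45% of the raised and 7.14% of the lowered ones. The motifs were chosen after the values were seen, and a match is a description of letters, not of binding.

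Transcription factors of the AP-1 group themselves moved. Fosl1 had 0.608, 0.309 and 0.313 CPM with ethanol and 15.5, 21.6 and 19.5 CPM with MC903 (log2 change 5.51, SE 0.33, adjusted p = 1.5e-08). Junb had 122, 130 and 109 CPM with ethanol and 692, 881 and 766 CPM with MC903 (log2 change 2.7, SE 0.12, adjusted p = 1.7e-09). Fos had 11.7, 9.59 and 9.44 CPM with ethanol and 49.8, 66 and 58.4 CPM with MC903 (log2 change 2.5, SE 0.18, adjusted p = 8e-08). Of 18 AP-1, EGR and immediate early factors 14 rose and 2 fell (median 1.22), with Egr2, which is needed for myelin formation, down from 56.9, 65.8 and 52.1 CPM to 15.9, 17.6 and 16.7 CPM (-1.8). Among 31 epidermal factors 16 rose and 11 fell (median 0.26, and -0.31 with 9 rises and 16 falls on library totals). The epithelial ETS factors Elf3 and Elf5 rose from 1.65, 0.722 and 1.12 CPM to 66.4, 83.3 and 61 CPM (5.9) and from 2.73, 3.4 and 3.84 CPM to 33.7, 30.1 and 37.9 CPM (3.35). Cebpb, a factor of differentiation and inflammation, had 1.73, 2.62 and 1.24 CPM with ethanol and 10.2, 108 and 76.1 CPM with MC903 (log2 change 5.12, SE 1.25, adjusted p = 0.0025), with the first MC903 library far below the other two and a change of 4.54 without the second. Gata3 fell from 106, 99.4 and 88.3 CPM to 29.2, 23.9 and 19.5 CPM (log2 change -2.01, SE 0.13, adjusted p = 2.3e-08), and Notch1, which drives suprabasal fate, from 225, 218 and 236 CPM to 121, 84.8 and 84.4 CPM (log2 change -1.23, SE 0.12, adjusted p = 1.8e-06).

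Proteases that shed corneocytes rose. All 17 tested of 20 listed kallikrein, serine protease and inhibitor genes rose, with a median of 3.1. Klk6 had 92.8, 82.6 and 69.3 CPM with ethanol and 2110, 2380 and 2300 CPM with MC903 (log2 change 4.8, SE 0.12, adjusted p = 5.1e-11). Klk13 had 9.76, 14.4 and 18.5 CPM with ethanol and 604, 749 and 714 CPM with MC903 (log2 change 5.6, SE 0.22, adjusted p = 6.4e-10). Klk12 rose by 4.81. The serpins diverged: Serpinb11 rose from 13.2, 10.6 and 12.2 CPM to 69.9, 61.9 and 80.6 CPM (2.56), and Serpinb12 fell from 102, 72.1 and 95.5 CPM to 27.5, 11.6 and 13.9 CPM (-2.35). Serpina3b fell from 114, 87.7 and 90.3 CPM to 0.349, 0.566 and 0.395 CPM (log2 change -7.79, SE 0.24, adjusted p = 1.1e-10). The Serpina3 genes are close copies and uncertain one by one, with 6 falls and 1 rise among 10 tested (of 11 listed). Skint genes, immunoglobulin-like genes of keratinocytes, fell in all 11 cases by 0.45 to 8.73, with a median of -2.76. Skint4 fell from 27.8, 31 and 40.4 CPM to 0.974, 0.617 and 1.48 CPM (log2 change -5.04, SE 0.23, adjusted p = 1.9e-09), again within a family of near-identical copies.

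Genes of cell contacts moved in both directions. The gap junction genes Gjb2 and Gjb6, connexins 26 and 30 of hyperproliferative epidermis, rose from 23.2, 22.2 and 21.2 CPM to 732, 622 and 795 CPM (log2 change 5.01, SE 0.13, adjusted p = 5.1e-11) and from 6.23, 6.6 and 7.97 CPM to 308, 325 and 381 CPM (log2 change 5.61, SE 0.15, adjusted p = 5.1e-11). Cldn4 rose from 125, 144 and 133 CPM to 480, 596 and 518 CPM (1.99), while the tight junction genes Cldn8 and Tjp3 fell from 6.95, 6.27 and 6.88 CPM to 0.649, 0.488 and 0.493 CPM (-3.61) and from 69.2, 74.4 and 70 CPM to 13.9, 9.59 and 7.63 CPM (-2.77). Of 23 tight and gap junction genes 7 rose and 13 fell (median -0.59). In desmosomes 11 of 16 tested (of 17 listed) rose and 4 fell (median 0.80). Corneodesmosin (Cdsn) had 645, 734 and 729 CPM with ethanol and 6580, 7060 and 7360 CPM with MC903 (log2 change 3.32, SE 0.10, adjusted p = 7.5e-11). Dsc2 rose by 2.87, whereas Dsg1a, the main desmoglein of upper epidermis, fell from 998, 1090 and 1300 CPM to 348, 187 and 247 CPM (-2.11). At the basement membrane 8 of 26 genes rose and 14 fell: the wound integrin Itgb6 rose from 3.23, 2.74 and 3.65 CPM to 36.7, 51.7 and 45.1 CPM (log2 change 3.79, SE 0.15, adjusted p = 5.9e-10), against falls of the laminin chain Lama5 (-2.21), the anchoring fibril collagen Col7a1 (-2.03) and the hemidesmosome collagen Col17a1 (-1.46). With the length trend removed, that list counted 12 rises and 9 falls, so its balance depended on that choice.

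Developmental signals fell in 25 of 36 tested (of 37 listed) genes and rose in 8. The median was -1.04. Wnt10b, a Wnt ligand of hair growth, fell from 3, 3.61 and 4.44 CPM to 0, 0.129 and 0.0987 CPM (log2 change -5.59, SE 0.46, adjusted p = 2.7e-07, with -4.96 and -6.33 without the first or the second MC903 library), the Wnt target Axin2 from 63.3, 63.9 and 60.7 CPM to 11.9, 9.36 and 11 CPM (log2 change -2.54, SE 0.10, adjusted p = 6.8e-10), and the stem cell receptor Lgr6 from 32, 34.3 and 48.2 CPM to 2.77, 2.13 and 3.62 CPM (log2 change -3.76, SE 0.25, adjusted p = 4e-08). Bmp2 was among the rises, from 26.2, 31.6 and 25.3 CPM to 112, 155 and 152 CPM (log2 change 2.33, SE 0.12, adjusted p = 5.2e-09). In these 4 genes no MC903 library overlapped an ethanol library.

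Antimicrobial genes rose in 14 and fell in 6 of 22 tested (of 26 listed) cases. The median was 1.71. Defb4 had 0.285, 0 and 0.0922 CPM with ethanol and 48.4, 55.7 and 48.8 CPM with MC903 (log2 change 8.6, SE 0.40, adjusted p = 1.9e-09, and 9.95 without the first ethanol library). Slpi, a protease inhibitor with antibacterial activity, had 5.17, 4.51 and 2.53 CPM with ethanol and 596, 717 and 773 CPM with MC903 (log2 change 7.42, SE 0.31, adjusted p = 8.6e-10). Defb6 had 30.9, 28.3 and 25.4 CPM with ethanol and 1.62, 2.26 and 0.888 CPM with MC903 (log2 change -4.12, SE 0.22, adjusted p = 5.5e-09). Defensin copies are similar in sequence and the split is uncertain. The subunits of calprotectin were also measured. S100a8 had 0.646, 0.495 and 0.277 CPM with ethanol and 17.4, 18.6 and 20.6 CPM with MC903 (log2 change 5.32). S100a9 had 0.627, 0.701 and 0.535 CPM with ethanol and 35.5, 33.8 and 34 CPM with MC903 (log2 change 5.79). Every MC903 value of both genes exceeded every ethanol value. Of 25 pattern recognition genes 12 rose and 8 fell (median 0.16, and -0.41 with 6 rises and 12 falls on library totals), with the C-type lectin Clec4d up by 2.63 and the flagellin receptor Tlr5 down from 7.61, 6.82 and 8.22 CPM to 1.65, 0.643 and 1.02 CPM (-2.77). Among 21 tested (of 23 listed) complement genes 7 rose and 9 fell (median -0.25), against 5 rises and 13 falls on library totals. The activator properdin (Cfp) rose by 1.78, and the inhibitor Cd55 fell by 1.56. Of 18 SLURP and Ly6 genes 9 rose and 6 fell, with log2 changes from -4.39 to 2.73. The median was 0.46, and -0.12 with 7 rises and 7 falls on library totals. Slurp1 and Slurp2, secreted Ly6 proteins of upper epidermis, were among the falls.

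Stress and biosynthesis genes rose as blocks. All 22 genes of the unfolded protein and integrated stress responses rose, with a median of 1.98 (1.40 on library totals). Chac1, which degrades glutathione, had 3.17, 1.96 and 1.88 CPM with ethanol and 60, 81.9 and 85.3 CPM with MC903 (log2 change 5.01, SE 0.21, adjusted p = 9.2e-10), the asparagine synthetase Asns rose by 3.11, and the chaperone Hspa5 had 231, 218 and 258 CPM with ethanol and 1240, 1210 and 1230 CPM with MC903 (log2 change 2.38, SE 0.09, adjusted p = 3.2e-10). Of 26 glycolysis and hypoxia genes 20 rose and 2 fell (median 1.37): the lactate exporter Slc16a3 rose by 3.24, and Ldha had 347, 333 and 330 CPM with ethanol and 2060, 2260 and 1960 CPM with MC903 (log2 change 2.64, SE 0.08, adjusted p = 1.1e-10). The NRF2 list had 15 rises and 5 falls among 22, led by the glutathione transferase Gsta4 with 5.85, 4.93 and 6.71 CPM with ethanol and 322, 233 and 261 CPM with MC903 (log2 change 5.54, SE 0.16, adjusted p = 7.4e-11) and the cystine carrier Slc7a11 (4.39), with Osgin1 down (-1.6). The zinc carrier Slc39a4 rose from 3.29, 5.34 and 9.13 CPM to 119, 191 and 175 CPM (4.77). Mt4, the metallothionein of squamous epithelium, fell from 99.8, 114 and 110 CPM to 26.7, 8.07 and 11.4 CPM (-2.81, and -3.47 without the first MC903 library). The amino acid carrier Slc7a5 rose from 67.7, 91.1 and 83.2 CPM to 520, 613 and 564 CPM (2.81). Its list of 26 solute and water carriers had 15 rises and 7 falls (median 0.43, and -0.15 with 10 rises and 11 falls on library totals).

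**Figure D4:**
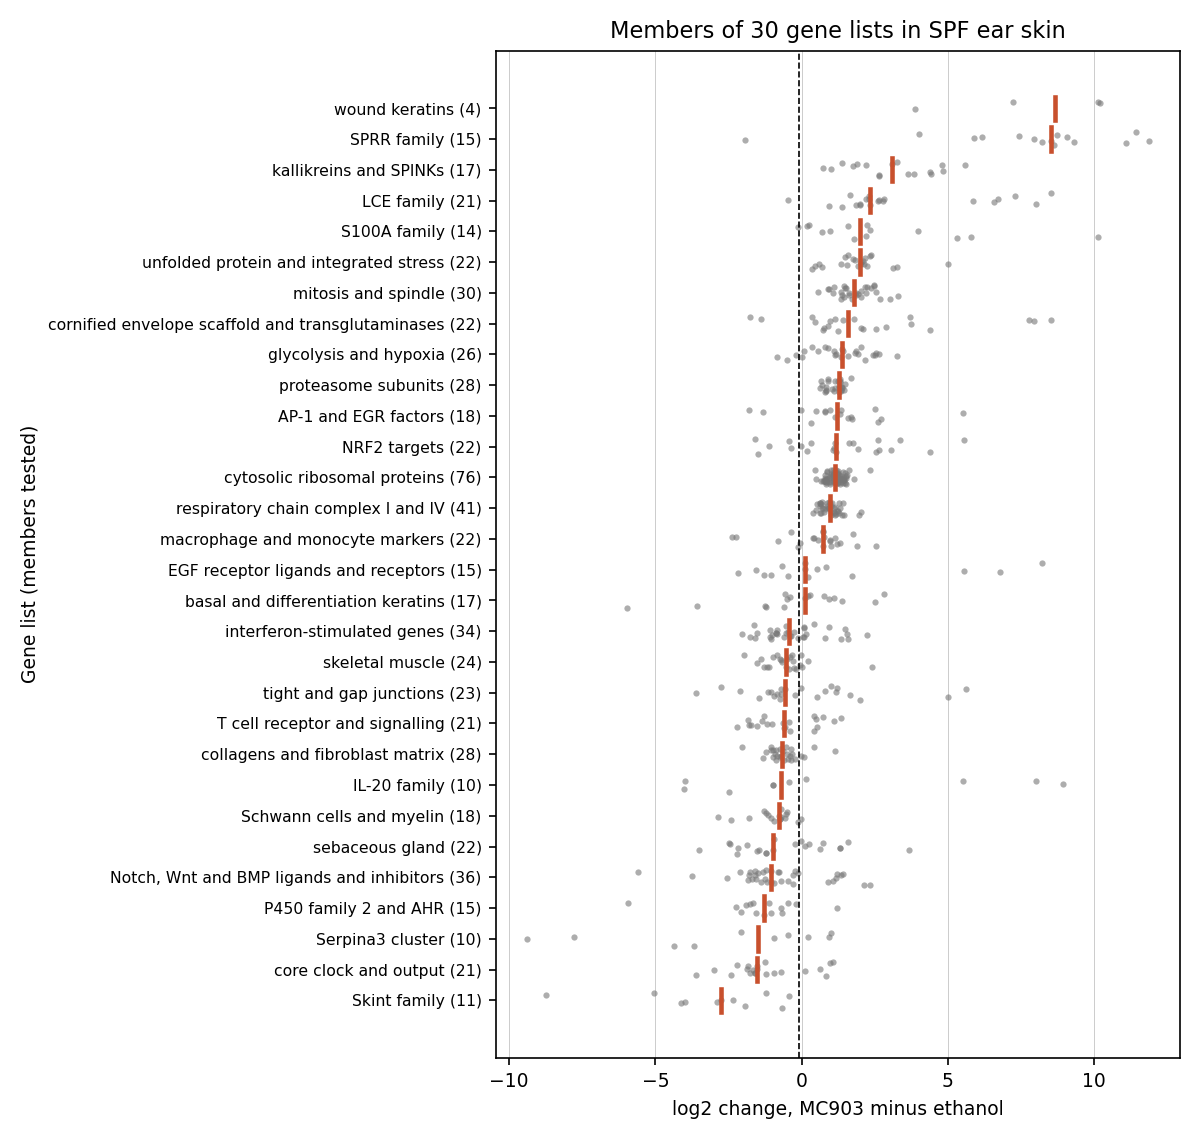
Log2 change (MC903 minus ethanol) of every tested member of 30 gene lists (grey points), with the list's median (red) and the median of all genes tested (dashed line at -0.10); genes at 0 in 1 group are drawn at their bound. Among the lists drawn, which leave out the stefins, wound keratins and the SPRR family lie furthest right, with medians of 8.67 and 8.52, and Skint genes furthest left at -2.76.

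Ribosomal, proteasome and respiratory genes rose together but are short, and short genes rose more often in these libraries. Of 76 cytosolic ribosomal protein genes 75 rose and 0 fell (median 1.15). All 28 proteasome genes (median 1.26) and all 41 genes of complexes I and IV (median 0.97) rose. In the shortest decile of gene length (median 771.5 bases) 58.9% of genes rose and 13.7% fell, and in the longest (7435.5 bases) 14.1% rose and 66% fell. With the length trend removed the medians were 0.46, 0.81 and 0.22, with 61, 28 and 25 rises and 0, 0 and 1 falls. The 3 medians stayed above 0 with TMM factors and fell by the most in the respiratory list. On library totals, with the length trend kept, the medians were 0.58, 0.68 and 0.39, with 69, 25 and 29 rises and 0, 0 and 1 falls. Both changes at once were not tried. Ndufa4 had 112, 111 and 107 CPM with ethanol and 434, 485 and 423 CPM with MC903 (log2 change 2.03, SE 0.07, adjusted p = 3.2e-10). The translation repressor Eif4ebp1 rose by 2.62.

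**Figure D5:**
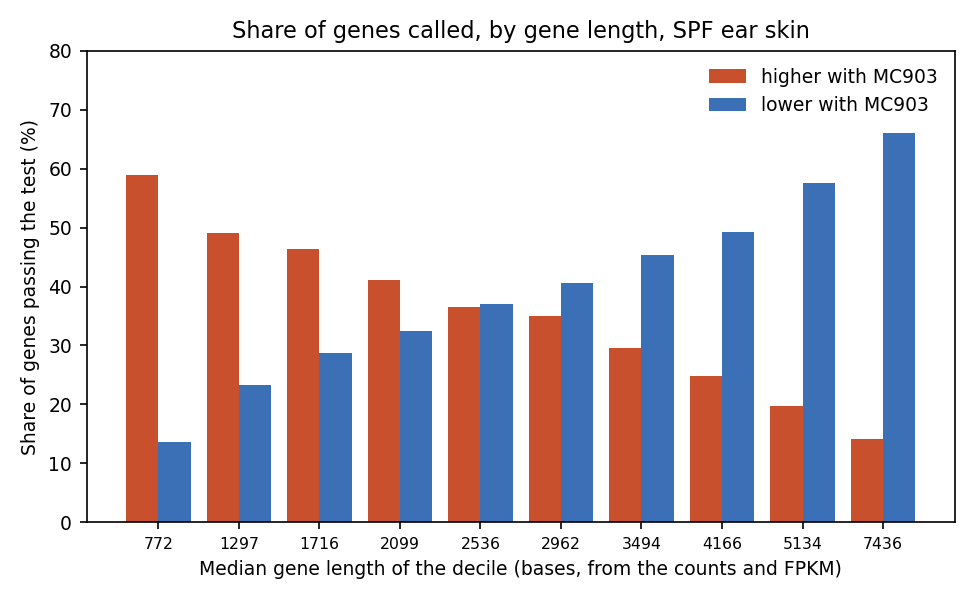
Share of genes (percent) that were higher (red) or lower (blue) with MC903 at an adjusted p of 0.05, by deciles of gene length, labelled with each decile's median length in bases. The share of rises falls from 58.9% in the shortest decile to 14.1% in the longest, and the share of falls climbs from 13.7% to 66%.

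Cell division genes rose. All 30 mitosis genes rose, with a median of 1.79 (1.88 with the length trend removed). Ube2c, which marks mitotic cyclins for destruction, had 8.01, 8.23 and 8.56 CPM with ethanol and 88.2, 85.8 and 67.2 CPM with MC903 (log2 change 3.28, SE 0.16, adjusted p = 2.8e-09). The kinase Plk1 had 10, 8.45 and 7.12 CPM with ethanol and 75.3, 72.7 and 60.1 CPM with MC903 (log2 change 3.02, SE 0.15, adjusted p = 3.6e-09). Of 30 replication genes 24 rose and 1 fell (median 0.67), with the helicase subunit Mcm5 at 41.7, 34.8 and 43.6 CPM with ethanol and 175, 180 and 173 CPM with MC903 (log2 change 2.14, SE 0.09, adjusted p = 1e-09). On library totals replication genes counted 13 rises and 8 falls. Among 17 tested (of 18 listed) brakes of the cycle 9 rose and 5 fell, against 6 and 9 on library totals, with Btg2 up by 1.61 and the retinoblastoma relative Rbl2 down (-1.38).

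Each of the lipid lists held rises and falls. Sterol and fatty acid synthesis had 17 rises and 4 falls among 26 (median 0.52, and -0.06 with 12 rises and 10 falls on library totals), with Fdps of the sterol pathway up by 1.78. The summed CPM of that list, which includes Scd1, was 13000 to 13500 with ethanol and 9350 to 10900 with MC903. Of 22 sebaceous genes 13 fell and 6 rose (median -0.97). Their sum on TMM library sizes, which includes Fabp5, was 9400 to 9870 CPM with ethanol and 10300 to 11100 CPM with MC903. That rise is smaller than the shift to library totals. Mc5r, the melanocortin receptor of sebocytes, fell from 5.17, 7.26 and 7.65 CPM to 0.524, 0.797 and 0.428 CPM (-3.5). Fabp5, which keratinocytes also express, rose from 485, 581 and 592 CPM to 7110, 6900 and 7270 CPM (log2 change 3.68, SE 0.10, adjusted p = 6.1e-11). Ceramide genes had 16 rises and 7 falls among 27 (median 0.61, and 11 rises and 12 falls on library totals), with the desaturase Degs2 up from 16.4, 18.8 and 15.8 CPM to 166, 160 and 162 CPM (3.26) and the fatty acid enzymes Fa2h (-1.92) and Elovl6 (-1.98) down. Alox8 rose from 0.893, 0.783 and 0.756 CPM to 22.7, 13.6 and 15.4 CPM (4.4), and its relative Alox12e fell from 222, 305 and 305 CPM to 28.9, 25.5 and 31.2 CPM (-3.28). Hpgd, which inactivates prostaglandins, fell from 21.5, 29.3 and 23.3 CPM to 3.25, 3.14 and 3.68 CPM (-2.88). The fatty acid sensor Ppara fell from 22.8, 24.2 and 23.3 CPM to 2.95, 2.67 and 3.03 CPM (log2 change -3.02, SE 0.09, adjusted p = 1.1e-10). In retinoid metabolism Lrat, which esterifies retinol, rose from 0.475, 1.18 and 0.996 CPM to 71.6, 85.9 and 93.8 CPM (log2 change 6.57, SE 0.26, adjusted p = 6e-10) and Crabp2 by 3.59, and the carotene-cleaving Bco1 fell from 2.2, 2.27 and 2.45 CPM to 0.0999, 0.18 and 0.132 CPM (-4.04).

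Most clock and detoxification genes fell. Of 21 clock genes 16 fell and 4 rose (median -1.52): Hlf had 160, 179 and 174 CPM with ethanol and 16.2, 11.4 and 14.6 CPM with MC903 (log2 change -3.6, SE 0.13, adjusted p = 3.2e-10). Per3 had 131, 115 and 128 CPM with ethanol and 27.6, 19.9 and 22.9 CPM with MC903 (log2 change -2.41, SE 0.11, adjusted p = 1.3e-09). Nfil3, which opposes Hlf on shared sites, rose from 6.57, 14.6 and 8.79 CPM to 17.4, 22.4 and 23.4 CPM (log2 change 1.08, adjusted p = 0.0014, and 0.51 with adjusted p = 0.058 on library totals). Among 15 tested (of 16 listed) P450 and aryl hydrocarbon receptor genes 12 fell and 1 rose (median -1.3). Cyp2g1 fell from 65, 39.6 and 87.7 CPM to 1.02, 0.694 and 1.45 CPM (log2 change -5.95, SE 0.34, adjusted p = 9.6e-09), and Ahr itself from 54.8, 59.9 and 63.3 CPM to 11.7, 10.8 and 15.3 CPM (log2 change -2.24, SE 0.14, adjusted p = 1.8e-08).

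Leukocyte transcripts moved in both directions. The neutrophil list, of which 16 of 23 passed the filter, summed to 16.4 to 21.6 CPM with ethanol and 92.7 to 98.1 CPM with MC903, with 12 rises and 2 falls. Its members S100a8 and S100a9, also keratinocyte genes, made up most of the MC903 sum, with means of 18.9 and 34.5 CPM against 0.472 and 0.621 CPM with ethanol. The falls were Mmp9 (-0.49, adjusted p = 0.007), a gelatinase, and Mpo (-3.01, adjusted p = 0.019), a granule peroxidase of neutrophils. Mpo missed the threshold without the second ethanol (adjusted p = 0.072), the first MC903 (0.071) or the third MC903 library (0.061), and it was at 0 in both of these MC903 libraries. The attractant Cxcl3 went from 0 to 0.2, 0.36 and 0.428 CPM, at least 17-fold higher. The monocyte attractants Ccl2, Ccl7 and Ccl12 rose from 1.88, 0.66 and 1.03 CPM to 16.2, 15.3 and 22.2 CPM (log2 change 3.9, SE 0.38, adjusted p = 1.1e-06), by 4.0 and by 4.3, among 11 rises and 1 fall in 16 tested (of 20 listed) genes. Macrophage markers rose in 16 and fell in 4 of 22 cases (median 0.73), with 8 rises and 6 falls on library totals. On TMM library sizes they summed to 826 to 948 CPM with ethanol and 1100 to 1210 CPM with MC903, a rise smaller than the shift to library totals. The Fc receptor Fcgr1 rose from 1.52, 0.804 and 1.2 CPM to 7.16, 5.48 and 8.06 CPM (2.55), whereas Mertk (-2.39), which takes up dead cells, and the growth factor Il34 (-2.25) fell. Arg1 had 4.88, 5.9 and 3.69 CPM with ethanol and 23.3, 24.1 and 33.8 CPM with MC903 (log2 change 2.49, SE 0.20, adjusted p = 1.9e-07). Cd163, of resident macrophages, fell from 45, 52.6 and 41.9 CPM to 15.4, 17.1 and 20.7 CPM (-1.39).

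T cell genes fell in 12 and rose in 4 of 21 tested (of 28 listed) cases (median -0.61). On TMM library sizes their sum did not fall, at 163 to 181 CPM with ethanol and 173 to 197 CPM with MC903. That difference is smaller than the shift to library totals, so its direction depends on the scaling. Cd3g had 8.3, 8.6 and 8.96 CPM with ethanol and 2.55, 2.34 and 2.57 CPM with MC903 (log2 change -1.79, SE 0.15, adjusted p = 3.9e-07). Cd96 fell by 2.21, while Tnfrsf18, a costimulator of regulatory cells, rose by 1.1. The dendritic cell list had 9 rises and 7 falls among 20 tested (of 21 listed), against 4 and 9 on library totals, with Ccr7, the receptor of migrating cells, up from 0.665, 0.969 and 0.498 CPM to 6.39, 6.58 and 7.76 CPM (log2 change 3.28, SE 0.31, adjusted p = 9.3e-07). Ccl20 rose from 0.266, 0.433 and 0.553 CPM to 4.44, 7.69 and 5.59 CPM (3.81), and its receptor Ccr6 held 67 counts with ethanol and 2 with MC903, 23.6-fold fewer (95% counting interval 6.28 to 199). Mcpt8, a basophil protease, held 3 counts with ethanol and 235 with MC903, 111-fold more (95% counting interval 37.6 to 543), at 2, 1.59 and 3.06 CPM. Mast cell and basophil genes counted 9 rises and 5 falls in 17 tested (of 21 listed). The median was 0.42, and -0.15 with 5 rises and 7 falls on library totals. The mast cell receptor Mrgprb2 fell from 4.61, 5.26 and 4.72 CPM to 0.799, 0.617 and 1.41 CPM (-2.39). Of 34 interferon genes 17 fell and 7 rose (median -0.44), with the RNA sensor Ifih1 down (-1.76) and Oas1a up by 2.25.

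Dermal, nerve and muscle genes mostly fell. Of 28 collagen and fibroblast genes 23 fell and 2 rose (median -0.68), against 13 falls and 3 rises with the length trend removed. Postn, which encodes the matrix protein periostin, had 781, 741 and 681 CPM with ethanol and 164, 162 and 208 CPM with MC903 (log2 change -2.04, SE 0.12, adjusted p = 9e-09), and decorin (Dcn) had 1770, 1730 and 1650 CPM with ethanol and 624, 640 and 813 CPM with MC903 (log2 change -1.31, SE 0.12, adjusted p = 5e-07). Against this background Mmp13 (gene ID 17386, GRCm38 chromosome 9, 7272514 to 7283333), a collagenase, had 2.79, 1.05 and 0.664 CPM with ethanol and 377, 585 and 647 CPM with MC903 (log2 change 8.47, SE 0.44, adjusted p = 4.6e-09, and 9.3 without the first ethanol library), Mmp10 rose by 4.93, and the inhibitor Timp1 had 5.41, 5.4 and 3.84 CPM with ethanol and 38.2, 39.3 and 50.5 CPM with MC903 (log2 change 3.13, SE 0.16, adjusted p = 4.7e-09). Timp3 fell by 1.48. Of 23 tested (of 24 listed) genes of such proteases and their inhibitors 8 rose and 7 fell (median -0.19), against 6 rises and 13 falls on library totals. Among 15 tested (of 16 listed) hyaluronan genes 9 rose and 2 fell, against 8 rises and 6 falls on library totals. The synthase Has3 had 1.67, 1.34 and 1.38 CPM with ethanol and 56.5, 36.2 and 43.1 CPM with MC903 (log2 change 4.95, SE 0.23, adjusted p = 2e-09), and the hyaluronan-degrading Cemip rose by 4.0. Of 18 Schwann cell genes 16 fell and 0 rose (median -0.77) and summed to 898 to 1030 CPM with ethanol and 536 to 597 CPM with MC903, with Ngfr at 33.4, 23.7 and 31.5 CPM with ethanol and 4.74, 2.67 and 4.9 CPM with MC903 (log2 change -2.85, SE 0.19, adjusted p = 4.9e-08). Muscle genes fell in 18 of 24 (median -0.53), with Neb down (-1.99) and Tnni1 up from 12.7, 10.9 and 10.1 CPM to 56.6, 65.8 and 55.5 CPM (2.4). Among 22 tested (of 23 listed) vessel genes 6 rose and 10 fell (median 0.01), against 3 rises and 14 falls on library totals. Plvap rose by 1.5, and the lymphatic factor Prox1 fell from 1.58, 1.61 and 1.7 CPM to 0, 0.154 and 0.329 CPM (-3.41, with -2.78 and -4.37 without the first or the third MC903 library). Adipocyte genes fell in 10 of 17 cases with 1 rise (median -0.76). Marker sums of these tissues moved with the treatment, and their part in the other changes was not tested.

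The response was also set beside that of GF skin, a comparison that shares the SPF libraries. Over all genes 17% passed the test of the difference between responses, 7.76% with a higher and 9.26% with a lower log2 change in GF skin. On library totals the balance turned over, with 1653 higher and 1155 lower, against 1277 and 1525 with TMM factors. Of the 22 genes of the unfolded protein and integrated stress responses, 15 had a lower change in GF skin and 0 a higher one. The numbers were 13 and 0 of 26 glycolysis genes, 12 and 1 of 22 envelope scaffold genes, and 10 and 0 of 17 kallikrein and inhibitor genes. Among 11 Skint genes 0 were lower and 8 higher. The lists named so far are examples, and other lists of mostly raised genes varied. Lower and higher changes in GF skin numbered 0 and 0 of 21 late cornified envelope genes, and 0 and 1 of 30 mitosis genes. They numbered 1 and 1 of 41 respiratory, 4 and 0 of 76 ribosomal protein, and 1 and 5 of 30 replication genes. In the small proline-rich list they were 7 and 0 of 15.

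In a few genes 1 library stood apart. Hba-a1, an alpha-globin, had 0.589, 1.32 and 0.664 CPM with ethanol and 2.45, 94 and 1.28 CPM with MC903, with the second MC903 library far above the rest. Its log2 change was 5.26 (adjusted p = 0.017) with that library and 1.16 (0.49) without it, and the gene has a near-identical copy. Kctd12 had 104, 122 and 4.55 CPM with ethanol and 0 with MC903, with the third ethanol library far below the first 2, and its adjusted p of 0.005 in edgeR was 0.28 in limma voom. Of the genes named above, Krt2, Slurp1 (29.1, 11.1 and 14.2 CPM with MC903), Serpinb12 (27.5, 11.6 and 13.9) and Mt4 (26.7, 8.07 and 11.4) were each highest in the first of the MC903 libraries, whereas Krt77 was lowest there. These 4 were picked after their values were seen, and every one of their MC903 values stayed below every ethanol value.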

How the data were processed

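Total RNA of ear skin was extracted with a fibrous tissue kit and made into TruSeq v2 libraries for a HiSeq4000, per the labels' protocols. bcl2fastq 2.20.0, Trimmomatic, HISAT2 2.1.0, StringTie 1.3.4d and the mm10 build are named in the submitters' processing notes. Their order, settings and annotation, and whether strand was used, are not stated there. Reads of overlapping genes and near-identical copies may therefore be mixed. Per the file headers, each gene and library has 2 deposited values, an estimated count and an FPKM. The estimated counts, as deposited, were whole numbers, so none was rounded, and the deposited FPKM, normalized by the authors to length and depth, served for levels between genes and, with the counts, for gene lengths. Of 24532 genes, 24462 matched by gene ID to a RefSeq table of GRCm38.p6, which gave coordinates.

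The counts of all 12 libraries were fitted with edgeR 4.0.16 in R 4.3.3 (filterByExpr with a minimum count of 10 and a minimum total of 15, TMM factors, 1 coefficient for each of 4 groups, common dispersion 0.022), and 16466 genes were tested. The MC903 coefficient was compared with ethanol in SPF skin, and the GF response with the SPF response, by the quasi-likelihood test with Benjamini-Hochberg adjustment over all genes tested; every adjusted p is from this test unless another tool is named. The fit was also run on simulated counts in which few genes were changed. That run does not test the scaling where most genes differ, as they did here. Members and the 73 gene lists were chosen with earlier results of these data known. Lists were described by counts and medians, with no set test. Named genes were the reference genes of the lists, up to 4 called rises and 4 called falls with the largest change in each list, the 20 largest rises and falls, the 10 largest gains and losses of CPM, and the 10 most variable genes of each group. Counting intervals are 95% intervals for the ratio of summed counts and cover counting error only, as does the floor of 3 counts. Alternatives were DESeq2 1.42.0, library totals, limma voom (limma 3.58.1), no filter on low counts, the 6 SPF libraries alone, a replicate block, removal of the trend of the changes with gene length, and leaving out each library.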

Additional observations from a re-analysis of the deposited data

Results flagged for a closer look

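The response to MC903 differed between housings for 9 of the reference genes, in the test of the difference itself (edgeR's quasi-likelihood test, GF minus SPF response on the log2 scale, 3 libraries per group). Over all genes 17% passed that test, 7.76% with a higher and 9.26% with a lower value in GF skin. Scaled to library totals, 1653 were higher and 1155 lower, so the balance turned over. The difference was -1.42 for Tslp (adjusted p = 0.0052), -0.76 for Il33 (0.029), -1.92 for Areg (0.034), -2.16 for Krt6a (0.00012), -2.11 for Krt16 (0.02) and -1.55 for Arg1 (0.0026), so that these rises were smaller in GF skin. It was 5.44 for Krt24 (3.5e-08), 2.16 for Hlf (2.6e-05) and 0.78 for Per3 (0.0033), genes that fell in SPF skin. The calls of Il33, Areg and Krt16 were lost in some settings: Il33 on library totals and Areg and Krt16 in limma voom, and each without 1 or more single libraries.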

How the results depend on the processing

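On library totals 3127 genes were higher and 10105 lower, against 5755 and 6395 with TMM factors, and every other setting kept these counts within 1.5 times. Leaving out 1 library at a time gave 11536 to 12244 genes past the threshold, 5537 to 5838 higher and 5967 to 6457 lower, and for the GF minus SPF response 2130 to 2763, 922 to 1305 and 1176 to 1458. With the replicate number as a block 5703 genes were higher and 6247 lower, and 1050 and 1253 for the GF minus SPF response. Whether the numbers pair the libraries stayed unsettled. Same-numbered SPF libraries correlated at 0.00636, 0.0535 and 0.113 in their deviations from group means, and GF ones at 0.0258, 0.000903 and 0.0147. Differently numbered libraries of the same housing lay between -0.0997 and 0.0467, and not every library correlated best with its own number. With 3 libraries per group the deviations depend on each other, so the check is too weak to decide. Of 193 named genes, 3 values changed sign: Vdr with the length trend removed (0.21), Krt5 on library totals (-0.30) and Cyp27b1 without the third MC903 library (0.018, adjusted p = 0.97, and down to -0.63 without other libraries). The call of Hba-a1 was also lost in limma voom (3.2), under the block (3.62) and without the first (5.05) or the third (5.1) ethanol library. Depth limits the genes under 1 CPM, where a few counts decide a fold.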
